A study of Mus musculus with 6 samples.

Results

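CD8+ T cells that carried the human transgene hSTAT5BN642H were compared with WT CD8+ T cells for DNA methylation outside CpG islands. The genome was cut into 5-kb tiles on the 19 autosomes of GRCm38 (mm10), and a tile was kept where each of the 4 libraries had at least 3 CpGs outside islands with 5 or more reads. This rule kept 124892 of the 294451 tiles that held a CpG of that depth in any of the 4 libraries, which is 42.4% of them. Each tested CpG counted equally in the level of its tile, which is given in percent.

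The cells were enriched magnetically from LNs of 13-week-old mice on a C57BL/6N background. WT mice carried no transgene, and hSTAT5BN642H mice carried 1 copy of a transgenic allele (labelled +/T) that encodes human STAT5B with the N642H exchange under the hematopoietic Vav1 promoter, on top of their own mouse STAT5 genes. A further genotype, hSTAT5B, carried the human gene without the exchange. There were 2 libraries per genotype, each from 1 mouse, and each transgene was studied in 1 selected line, so that the site of integration and the transgene cannot be told apart. The hSTAT5BN642H mice had T cell disease when the cells were taken, and disease and genotype cannot be told apart either. A lower level in such bulk samples can come from fewer methylated copies in every cell or from another mix of cells, which these data cannot separate.

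In mammals, methyl groups sit mostly on cytosines followed by guanine. Most CpGs outside islands are methylated in most cells, whereas active promoters and enhancers are kept less methylated. STAT5B is a transcription factor that is activated by JAK kinases downstream of cytokine receptors such as those for IL-2, IL-7, and IL-15, and N642H lies in its SH2 domain, which binds phosphotyrosine. When methylation is not copied fully at replication, levels fall slowly with cell division, above all in CpG-poor, late-replicating DNA.

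RRBS reads DNA cut by the enzyme MspI at CCGG, so that a tile holds a few short covered stretches. The following 7 stretches were picked after their values were seen, from the tiles with the widest gaps at CpGs tested in all 4 libraries and from Il2rb, which encodes the receptor chain that IL-2 and IL-15 share. They are given 5′ to 3′ on the plus strand of GRCm38, named by the gene they lie in or nearest to, and the capitals mark the CpGs that all 4 libraries covered at this depth.
Il2rb, intron, chr15:78489800-78489893: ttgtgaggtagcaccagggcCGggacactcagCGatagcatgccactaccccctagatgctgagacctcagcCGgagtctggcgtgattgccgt
Rras2, intron, chr7:114114695-114114799: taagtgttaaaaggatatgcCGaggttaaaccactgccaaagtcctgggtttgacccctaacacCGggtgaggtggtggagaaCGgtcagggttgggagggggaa
Runx2, intron, chr17:44567443-44567557: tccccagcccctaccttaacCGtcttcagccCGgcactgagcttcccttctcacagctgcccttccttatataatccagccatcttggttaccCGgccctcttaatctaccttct
Ppp3cc, intron, chr14:70287736-70287807: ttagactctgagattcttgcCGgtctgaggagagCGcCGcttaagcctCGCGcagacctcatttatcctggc
Between genes, Gzmb nearest, chr14:56275723-56275882: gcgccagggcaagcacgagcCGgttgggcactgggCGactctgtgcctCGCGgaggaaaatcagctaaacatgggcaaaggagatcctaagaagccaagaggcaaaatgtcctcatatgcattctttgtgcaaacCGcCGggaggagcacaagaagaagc
Between genes, Zbtb10 nearest, chr3:9174390-9174554: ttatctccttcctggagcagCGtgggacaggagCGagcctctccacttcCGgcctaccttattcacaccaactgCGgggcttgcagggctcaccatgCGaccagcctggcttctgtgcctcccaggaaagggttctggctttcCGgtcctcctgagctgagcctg
Pou2f2, intron, chr7:25129624-25129808: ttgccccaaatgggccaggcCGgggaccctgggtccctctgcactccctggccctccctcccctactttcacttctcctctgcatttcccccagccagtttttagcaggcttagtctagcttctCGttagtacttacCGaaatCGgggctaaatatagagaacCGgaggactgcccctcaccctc

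Within each stretch, the marked CpGs differed in 1 direction. In Il2rb, the 3 marked CpGs had a mean level of 96.7% in WT and 45.7% in hSTAT5BN642H. At the middle one, 29 of 29 reads were methylated in WT replicate 1 (95% Wilson interval 88.3% to 100%) and 26 of 26 in WT replicate 2 (87.1% to 100%). In hSTAT5BN642H, 15 of 31 reads (32.0% to 65.2%) and 16 of 38 reads (27.9% to 57.8%) were methylated. The intervals of the genotypes do not meet at this CpG. Nor do they at the third, where the lowest WT bound is 75.4% and the highest hSTAT5BN642H bound 72.0%. At the first they do meet, with 59.6% to 98.2% in WT replicate 2 and 48.1% to 85.5% in hSTAT5BN642H replicate 1. These intervals cover counting error only, since RRBS reads carry no molecular identifiers here.

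In Rras2, which encodes a small GTPase of the RAS family, the first marked CpG was methylated in 15 of 21 and 8 of 14 reads in WT, whereas 0 of 21 and 0 of 8 reads were methylated in hSTAT5BN642H. The mean over the 3 marked CpGs was 71.4% in WT and 13.7% in hSTAT5BN642H. The corresponding means were 73.7% and 22.3% over the 3 CpGs in Runx2, a RUNX family transcription factor gene. They were 49.6% and 12.3% over 5 CpGs in Ppp3cc, which encodes a catalytic subunit of calcineurin. Over the 6 CpGs of the stretch with Gzmb as its nearest gene they were 82.5% and 44.8%. This stretch runs into the processed pseudogene Gm48200, and its tile lies 12741 bp from Gzmb, the granzyme B gene of cytotoxic granules. The last 2 stretches stood the other way. The 6 CpGs of the stretch with Zbtb10 as its nearest gene had means of 25.3% in WT and 61.7% in hSTAT5BN642H. Their tile lies 75602 bp from Zbtb10, a zinc finger gene. The 5 CpGs in Pou2f2, which encodes the octamer factor OCT2 of lymphocytes, had 10.5% and 45.3%.

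Over all tiles, methylation was about 1 percentage point lower in hSTAT5BN642H. The mean tile level was 83.1% and 83.5% in the WT libraries and 82.1% and 82.4% in the hSTAT5BN642H libraries, and the genotypes did not overlap. The difference was -1.03 percentage points (SD of the difference from the replicates 0.33, n = 2 per genotype). Both hSTAT5B libraries had 83.2% over the tiles they covered. With 2 libraries against 2, the exact permutation test (2-sided) gave p = 0.33, the smallest value this design allows. On each of the 19 autosomes both hSTAT5BN642H libraries lay below both WT libraries, with differences from -1.25 to -0.851 percentage points.

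Over all tested CpGs the level was lower in every class of genomic place. A tile was put in the class of most of its tested CpGs: promoter (within 1 kb of a transcript start of a protein-coding gene), exon, intron, within 10 kb of a gene, or intergenic. The 51624 intergenic tiles had 87.6% and 88.2% in WT and 86.6% and 86.8% in hSTAT5BN642H, a difference of -1.20 percentage points. The 42325 intron tiles differed by -0.96, the 12395 tiles within 10 kb of a gene by -0.90, and the 8669 exon tiles by -0.60 percentage points. The order of the classes moved with single WT libraries. Without WT replicate 2, exon tiles differed by -0.324, intergenic tiles by -0.863, and promoter tiles, described next, by -1.48 percentage points, whereas without WT replicate 1 these values were -0.885, -1.54, and -0.576. The gap between intergenic and exon tiles was -0.39 and -0.28 percentage points in WT and -0.94 and -0.92 in hSTAT5BN642H, so that the genotypes did not overlap in this contrast either (exact permutation p = 0.33).

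**Figure D1:**
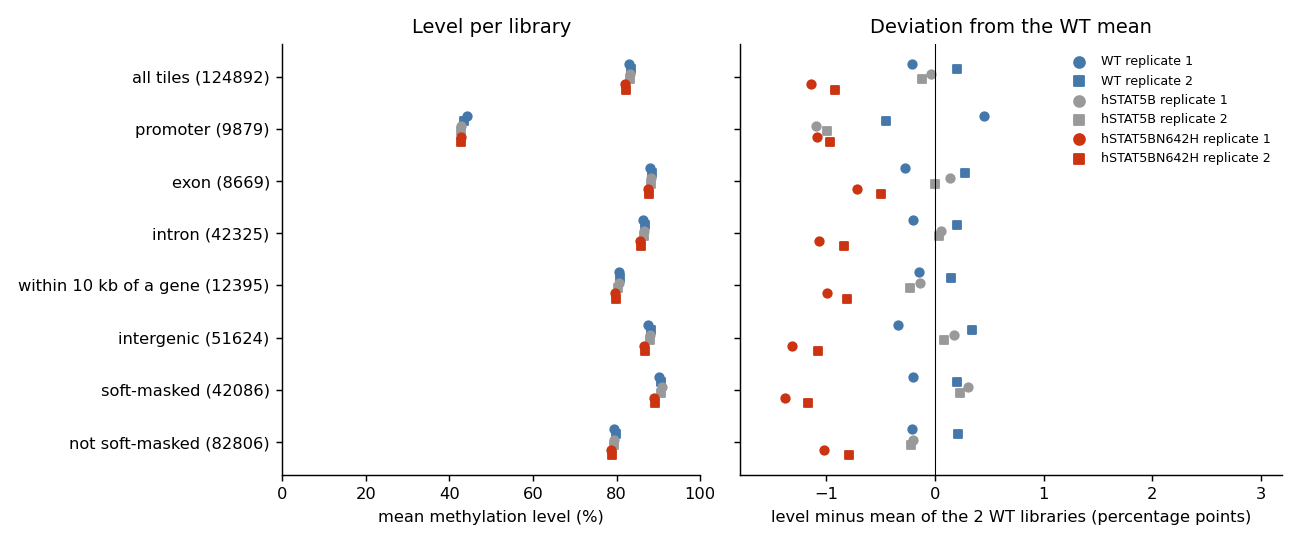
Mean methylation level of the tiles of each class per library, in percent (left), and the same as percentage points from the mean of the 2 WT libraries (right), with the number of tiles in brackets. Each point is 1 library. The hSTAT5BN642H points lie to the left of both WT points in every class, and farthest in soft-masked repeat and intergenic tiles.

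In promoter tiles, which differed by -1.03 percentage points, the value depended on which CpGs were compared. The 9879 of them had 44.3% and 43.4% in WT against 42.8% and 42.9% in hSTAT5BN642H, and the hSTAT5B libraries had 42.7% and 42.9%. At CpGs tested in all 4 libraries the promoter difference turned to 0.29 percentage points, with 40.5% and 40.9% in WT and 40.9% and 41.0% in hSTAT5BN642H. The same held for the 10544 tiles with most CpGs within 2 kb of an island, where -1.05 became 0.16 percentage points. There the genotypes overlapped, with 40.5% and 41.0% in WT and 40.9% and 41.0% in hSTAT5BN642H. On the same basis the difference was -1.14 percentage points in intergenic tiles and -0.874 in introns.

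The difference was larger in CpG-poor and in repeat DNA. Tiles were put in 4 classes of about equal size by the CpGs in their sequence, and likewise by GC content and by reads. In the class with the fewest CpGs (8 to 41 per 5 kb), the levels were 90.1% and 90.9% in WT and 89.0% and 89.1% in hSTAT5BN642H, a difference of -1.45 percentage points. In the class with the most CpGs (77 to 498) the difference was -0.83. By GC content the differences ran from -1.34 percentage points in the lowest class to -0.73 in the highest. The 42086 tiles whose CpGs lie mostly in soft-masked repeats differed by -1.28 and the other 82806 by -0.91 percentage points. The contrast between the lowest and highest CpG class was 20.2 and 21.1 percentage points in WT and 20.1 and 19.9 in hSTAT5BN642H, and that between the lowest and highest GC class had a mean of 16.9 against 16.3. Neither pair overlapped between the genotypes, and the exact permutation test gave p = 0.33 for both. In the CpG contrast, however, WT replicate 1 (20.16) and hSTAT5BN642H replicate 1 (20.09) nearly met. By reads in the poorest library the differences ran over a similar range, from -1.24 percentage points in the lowest class to -0.73 in the highest. The 8226 tiles of the class farthest from a gene start differed by -1.38 percentage points and the 16549 of the nearest class by -0.962.

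A partly methylated tile differed more often than a fully methylated one. Tiles were classed by their level in the hSTAT5B libraries, which are in neither group of the comparison. Where that level was 20% to 50%, 16.5% of tiles were at least 10 percentage points lower and 12.5% at least 10 points higher in hSTAT5BN642H. Together this is 29.0%, against 21.3% and 22.1% in the mixed pairings described next. In the class of the highest levels, from 95%, the shares were 1.46% and 1.18%, in all 2.64% against 2.23% and 2.22%. The mean difference in that top class was -0.62 percentage points, the smallest of the 6 level classes, and it was -1.38 where the level was 80% to 90%.

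At a threshold of 10 percentage points, 7311 tiles were lower and 4484 higher in hSTAT5BN642H, which is 5.85% and 3.59% of all tiles. As a reference for noise, the 4 libraries were also set against each other in both mixed pairings, so that either side held a WT and an hSTAT5BN642H library. The first mixed pairing put 4773 tiles at least 10 points lower and 4300 higher, and the other put 4482 lower and 4505 higher. The genotype thus had more tiles on the lower side than either mixed pairing, whereas its count on the higher side lay within their range. At 20 percentage points, 1234 tiles were lower by genotype, against 546 and 499 in the mixed pairings. On the higher side these counts were 722 against 587 and 646. Without WT replicate 2, 17735 tiles passed 10 points in all and 7873 were higher, with fewer libraries averaged. Replicates of 1 genotype differed with an SD over tiles of 8.18 percentage points in WT and 7.49 in hSTAT5BN642H, and the genotype difference had an SD of 6.29 against 5.54 and 5.56 in the mixed pairings.

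**Figure D2:**
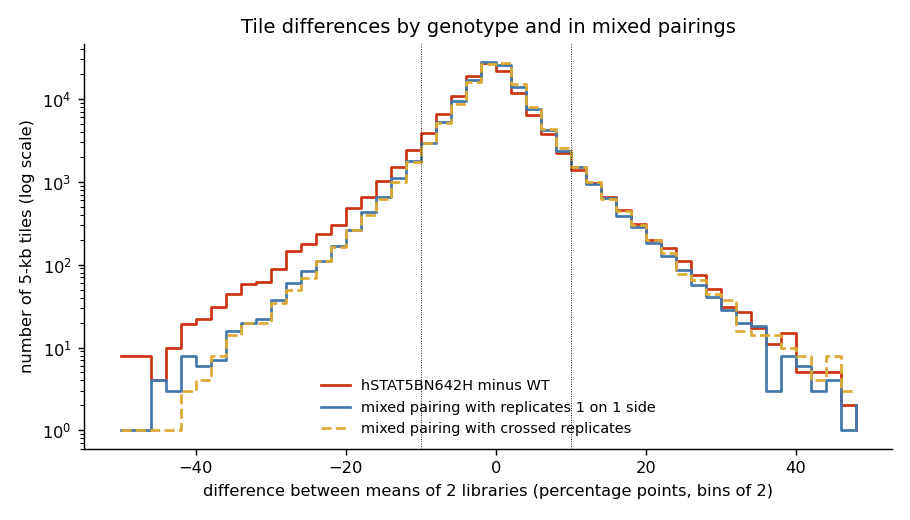
Number of tiles (log scale) by difference between the means of 2 libraries, in bins of 2 percentage points, for hSTAT5BN642H minus WT and for both mixed pairings. The dotted lines mark 10 percentage points. The genotype line lies above both mixed pairings on the left, where 7311 tiles are past 10 points against 4773 and 4482. On the right there are 4484 past 10 points against 4300 and 4505.

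Both hSTAT5BN642H libraries lay below both WT libraries in 31018 tiles (24.8%) and above both in 15591 (12.5%). Together this is 37.3% of tiles, and in the mixed pairings 30.7% and 30.4% of tiles did not overlap. Pearson's r across tiles between the difference of replicates 1 and that of replicates 2 was 0.12, and 0.13 with the replicates crossed. These r values compare pairs of libraries that share no library, over tiles that are not independent, and across the replicate differences of the genotypes r was -0.00411. Adjacent tiles were hardly alike in their differences, with r = 0.028 over 47456 pairs of neighbours, against 0.011 and 0.0087 in the mixed pairings.

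The libraries did not test the same CpGs. Outside islands on the autosomes, 1390310 and 1284450 CpGs had at least 5 reads in WT, against 1260685 and 1138741 in hSTAT5BN642H. Of the 1263100 CpGs that the kept tiles held, 800570 were tested in all 4 libraries. Among the 117818 tiles with at least 3 such shared CpGs, 6446 were at least 10 points lower by all tested CpGs, and 2807 of these (43.5%) were so at the shared CpGs. On the higher side it was 1659 of 3910 (42.4%). Counted at shared CpGs from the start, 3871 tiles were lower and 2625 higher by genotype. The mixed pairings then gave 2402 and 2276 lower and 1700 and 1795 higher, so that the genotype had more tiles on both sides. The shares also moved with depth. In the class with the fewest reads (15 to 62 in the poorest library) 13.7% of tiles passed 10 points by genotype and 11.8% in either mixed pairing, whereas in the class with at least 213 reads it was 4.82% against 2.83% and 2.90%. Tiles just inside the rule, with 3 CpGs in their poorest library, had a mean difference of -1.26 percentage points, as did those just outside it with 2.

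No tile passed the test across all tiles. limma on log2((methylated reads + 1)/(unmethylated reads + 1)) with all 6 libraries in 1 model called 0 of 124892 tiles at an adjusted p of 0.05 (0.0%), with a lowest adjusted p of 0.640. Without adjustment, 9425 tiles had p under 0.05, of which 6544 were lower and 2881 higher. A quasi-binomial model on the same reads called 79 tiles (0.0633%), 49 lower and 30 higher.

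Averaged over 1-Mb windows, the level was lower in most of the genome. Of the 2410 windows with at least 5 tiles, 2154 (89.4%) had a lower mean in hSTAT5BN642H, and the middle of the distribution lay at -1.10 percentage points, with a 5th and a 95th percentile of -2.63 and 0.40. Both hSTAT5BN642H libraries lay below both WT libraries in 1454 windows (60.3%) and above both in 53 (2.2%). limma on the window means called 136 windows (5.64%), each lower, on 18 of the 19 autosomes, with differences from -5.70 to -2.39 percentage points. The median called window had 87.6% and 87.8% in WT and 84.8% in both hSTAT5BN642H libraries.

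**Figure D3:**
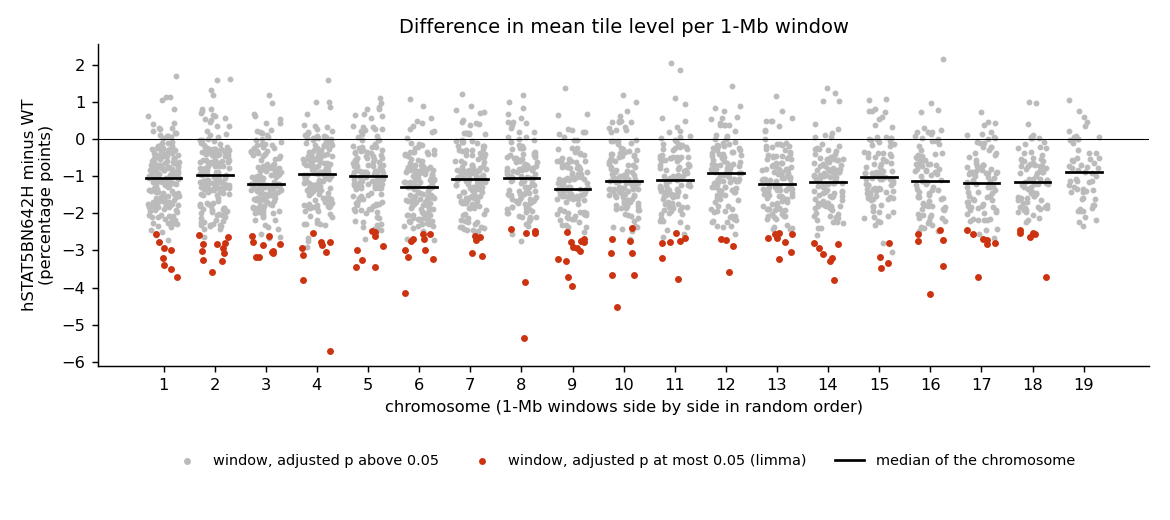
Difference in mean tile level, hSTAT5BN642H minus WT in percentage points, for each 1-Mb window, by chromosome. Red points passed limma at an adjusted p of 0.05 and black bars are chromosome medians. Every chromosome median lies below 0, and each red point lies at or below -2.39 percentage points.

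The calls depended on the common shift of all windows and on single libraries. With each library centred on its own median, limma called 0 windows, with 108 lower and 133 higher at an unadjusted p under 0.05. Without hSTAT5BN642H replicate 1 or replicate 2 limma made 0 calls (429 and 527 windows at an unadjusted p under 0.05), without WT replicate 2 there were 65 (3 of them higher), and without WT replicate 1 there were 268. limma on the 4 libraries alone called 0 (644 at an unadjusted p under 0.05). Called windows held a median of 4 protein-coding genes and 39.8% GC, against 6 genes and 41.6% GC in the others. Over 4 classes of GC content, 8.62%, 6.81%, 4.32%, and 2.82% of windows were called, from the lowest to the highest. Across the 2410 windows, which share the 4 libraries, Spearman's rho of the difference was 0.21 with GC content and 0.17 with the number of genes.

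The window with the lowest p was chr8:55000001-56000000, which holds Gpm6a (a neuronal membrane glycoprotein), Glra3 (a glycine receptor subunit), and Adam29. Its levels were 87.4% and 84.7% in WT, 80.4% and 81.0% in hSTAT5BN642H, and 81.4% and 82.1% in hSTAT5B (limma adjusted p = 0.00974). In chr10:31000001-32000000, around Nkain2, Rnf217, Tpd52l1, and Hddc2, the levels were 92.8% and 92.0% in WT and 88.6% and 87.1% in hSTAT5BN642H (difference -4.51 percentage points, limma adjusted p = 0.0146). The window inside Rbfox1, a long gene of a neuronal splicing factor, had 85.5% and 86.9% against 82.4% and 81.5%. The hSTAT5B libraries lay between the genotypes in both windows, at 91.5% and 90.4% in the former and 84.4% and 85.2% in the latter.

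The window chr6:41000001-42000000, which holds trypsinogen genes and part of the T cell receptor beta locus, had 89.7% and 86.6% in WT and 83.8% and 84.2% in hSTAT5BN642H, and was called (limma adjusted p = 0.0233). The largest difference of all windows, -5.70 percentage points, was at the type I interferon genes of chr4:88000001-89000000 (limma adjusted p = 0.0491). There the WT libraries themselves were apart, at 74.6% and 65.6%, and hSTAT5BN642H had 65.1% and 63.6%. The highest difference, 2.16 percentage points at chr16:32000001-33000000 with the transferrin receptor gene Tfrc, was not called (limma adjusted p = 0.071).

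The tiles with the widest gap between the genotypes, among the 70266 with at least 5 tested CpGs in each of the 4 libraries, had differences from -58.6 to -37.6 percentage points on the lower side and from 32.6 to 42.2 on the higher side, where 9 of the 10 are described. None passed limma (adjusted p 0.640 to 0.736), and the quasi-binomial model called 3 on either side. They were picked for their gap, so that their size is a description. Of the 10 on the lower side, 4 were promoter, 2 intron, 3 intergenic, and 1 within 10 kb of a gene. The 10 on the higher side were 4 promoter, 2 exon, 2 intron, and 2 intergenic tiles.

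Shared CpGs divided these 20 tiles. The Rras2 tile (chr7:114110001-114115000) had 82.6% and 79.0% in WT, 71% and 77.8% in hSTAT5B, and 16.7% and 27.6% in hSTAT5BN642H. Its difference was -58.6 percentage points over all tested CpGs and -57.6 over the 6 shared ones. The tile 12741 bp from Gzmb (chr14:56275001-56280000) had 83.7% and 84% in WT against 44.5% and 45.1%, with 84.7% and 81.9% in hSTAT5B. Here too the difference at shared CpGs, -37.8 percentage points, was close to the -39.1 over all of them. The Runx2 tile (chr17:44565001-44570000) had 71.4% and 66.3% in WT against 24.2% and 28.9%, and the tile in Usp20, a deubiquitinase gene, 75.8% and 85.8% against 40.8% and 21.0%. Their differences at shared CpGs were -44.4 and -49.9 percentage points. In both, hSTAT5B lay between the genotypes, at 52.9% and 62.3% in Runx2 and 62.5% and 69.5% in Usp20.

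The other 6 tiles of the lower side had next to no difference where the same CpGs were compared. These were Tigd3 (-43.6 percentage points over all tested CpGs and -2.05 at shared ones), Tubb2b (-45.2 and 1.56), and the tile near Neurod2 (-41.7 and -1.64). Rasgrp4, which encodes an activator of RAS, had -45.1 and 1.00, the tile near Sgsm1 -42.5 and -3.40, and Hesx1 -37.6 and 0. In the Tigd3 tile 13 and 12 CpGs were tested in WT and 6 in either hSTAT5BN642H library.

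On the higher side, the tiles near Zbtb10 (difference 42.2 percentage points, 42.9 at shared CpGs), in Chd7 (36.1 and 22.2), near Tgfbr3 (36 and 32.7), and in Nfam1 (34.6 and 31.4) kept their direction and most of their size. Chd7 encodes a chromatin remodeler, Tgfbr3 a co-receptor for TGF-beta, and Nfam1 a membrane activator of NFAT in lymphoid cells. In the Nfam1 tile, the levels were 25.6% and 36.3% in WT, 31.1% and 46.6% in hSTAT5B, and 65% and 66.1% in hSTAT5BN642H. The other 5 had between -2.12 and 7.03 percentage points at shared CpGs. They were Dscc1, Slc7a1, Btbd7, Irak3, and the start shared by Polr2k and Spag1, with 32.6 to 41.6 percentage points over all tested CpGs.

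**Figure D4:**
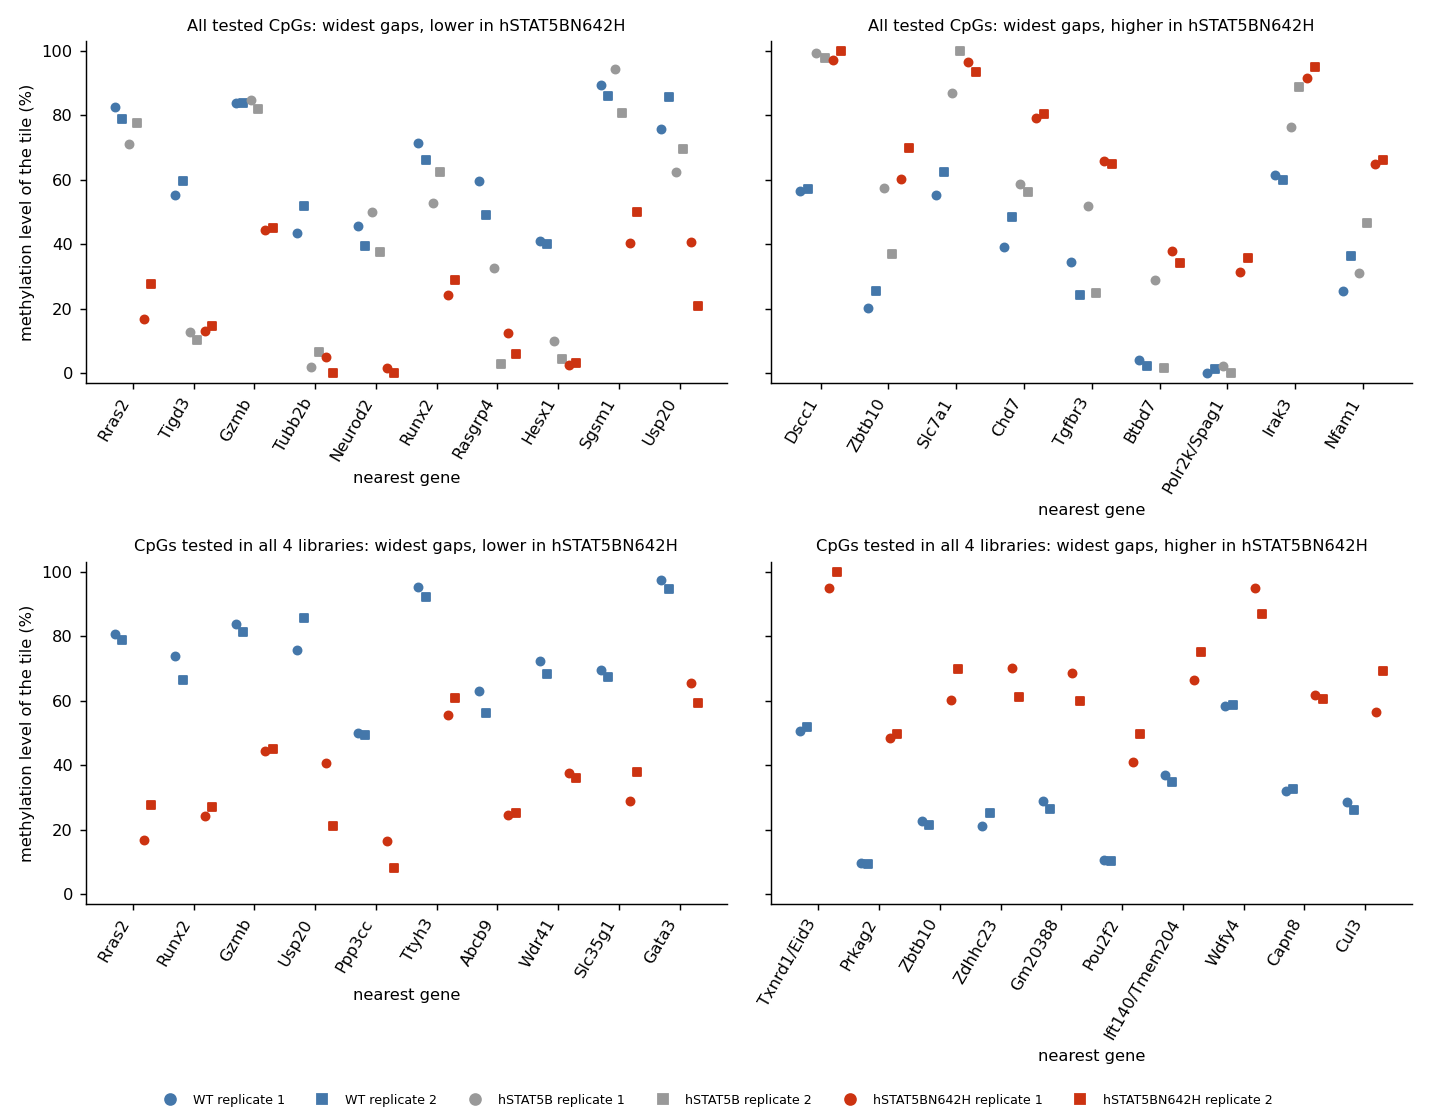
Methylation level in percent of the tiles with the widest gaps, 10 on the lower side and 9 on the higher, over all tested CpGs (top, all 6 libraries) and ranked again over CpGs tested in all 4 libraries (bottom, 10 on either side, WT and hSTAT5BN642H). Each point is 1 library. In the top row the tile in Rras2 stands at 82.6% and 79.0% in WT and 16.7% and 27.6% in hSTAT5BN642H, and 5 of the bottom 20 tiles are also in the top row.

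Ranked by the gap at shared CpGs, a choice made after these values were seen, 4 of the 10 lower tiles and 1 of the 10 higher ones were the same. The lower ones included an intron of Gata3, a transcription factor gene of the T cell lineage. Over all tested CpGs this tile had 98.3% and 94.7% in WT, 90.4% and 83.8% in hSTAT5B, and 65.5% and 59.3% in hSTAT5BN642H. Its difference at 8 shared CpGs was -33.7 percentage points. The tile in Ppp3cc had -37.3 percentage points at 5 shared CpGs, that in Abcb9, a lysosomal peptide transporter gene, -34.7 at 17, and that in Ttyh3 -35.7 at 12. Ttyh3 had the most reads behind it of these 4, at least 421 in each of the 4 libraries.

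Among the higher ones, the tile in Pou2f2 had 34.8 percentage points at 5 shared CpGs and that in Prkag2, which encodes a regulatory subunit of the AMP-activated kinase, 39.5. Over all tested CpGs the Pou2f2 tile had 10.9% and 38.7% in WT and 57.9% and 41.4% in hSTAT5BN642H, with a gap of only 2.70 points. The tile at Wdfy4 had 58.5% and 58.8% in WT and 94.9% and 87.0% in hSTAT5BN642H, and the hSTAT5B library that covered it had 89.0%. Over all tested CpGs, the tile in Zdhhc23, a palmitoyltransferase gene, had 79.6% and 85.1% in hSTAT5B beside 87.6% and 80.6% in hSTAT5BN642H and 43.7% and 68.9% in WT. In both tiles, hSTAT5B lay on the side of hSTAT5BN642H. At the 5 shared CpGs of the Zdhhc23 tile, WT had 21.2% and 25.3% and hSTAT5BN642H 70.1% and 61.0%. Over the 64420 tiles with at least 5 shared CpGs, 25.8% had both hSTAT5BN642H libraries below both WT libraries and 13.6% above.

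By gene, no difference passed the test. For the 15019 protein-coding genes with at least 2 tiles in the gene or the 5 kb on either side, limma on the mean tile level called 0 (0.0%) at an adjusted p of 0.05, with a lowest adjusted p of 0.172. Without adjustment, 975 genes (6.49%) were lower and 402 (2.68%) higher at p under 0.05. The median gene differed by -0.85 percentage points, and 9382 genes (62.5%) were lower. Both hSTAT5BN642H libraries lay below both WT libraries at 4222 genes (28.1%) and above both at 1871 (12.5%).

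Among genes with at least 3 tiles, Il2rb had the widest gap at shared CpGs and came after Psmb6 over all tested CpGs. The gene lies at chr15:78479256-78495271 on the minus strand. Its mean tile level was 85.5% and 80.7% in WT, 82.0% and 84.9% in hSTAT5B, and 62.6% and 56.6% in hSTAT5BN642H. The difference was -23.5 percentage points (limma SE 2.85, adjusted p = 0.253) and -22.7 at shared CpGs. The hSTAT5B values lay within the WT range, and the nearest libraries of WT and hSTAT5BN642H were 18.1 points apart.

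Over the gene and its flanks 5 tiles had a value, and their differences were unequal. In the intron tile chr15:78485001-78490000, which holds the printed stretch, the levels were 96.8% and 96.9% in WT, 100% and 96.1% in hSTAT5B, and 61.5% and 41.3% in hSTAT5BN642H. The tile upstream of the start, chr15:78500001-78505000, had a WT mean of 82.8% and 50.4% and 42.7% in hSTAT5BN642H. In the tiles from 78475001 and from 78480001 the differences were -16.5 and -11.1 percentage points, the former tile lying mostly downstream of the last exon. In the outermost downstream tile, from 78470001, it was -8.32 percentage points over all tested CpGs and 0.92 over the 4 shared ones.

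The remaining genes of the widest gaps on the lower side were Psmb6, Gltpd2, Ap1m2, Sv2a, Rnf138, Cyb561d2, Gm13276, Gm13277, and Ciart, with differences from -27.6 to -14.4 percentage points. Rnf138, a ubiquitin ligase gene, had -17.3 percentage points, with -12.1 at shared CpGs, and Ap1m2, an adaptor gene of vesicle transport, had -16.4, with -5.90. The proteasome subunit gene Psmb6 had -21.0 percentage points and -1.95 at shared CpGs. Psmb6 and Gltpd2 lie side by side and share tiles, as do Gm13276 and Gm13277, which have the same values. The others had between -0.61 and 2.58 percentage points at shared CpGs.

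On the higher side stood Clec11a, Gsta3, Suox, Ppp2r1b, Ceacam9, Polr2k, Gm28047, Atf7, Hic1, and Atp5b, with differences from 13.3 to 24.6 percentage points. Ceacam9, an adhesion molecule gene, had 67.2% and 76.6% in WT, 80.7% and 84.9% in hSTAT5B, and 89.5% and 88.8% in hSTAT5BN642H, and its difference was 17.2 percentage points over all tested CpGs and 17.3 at shared ones. Hic1, which encodes a transcriptional repressor, had 20.3% and 21.7% in WT and 36.9% and 32.9% in hSTAT5BN642H, with 11.9 percentage points at shared CpGs. Ppp2r1b, a scaffold subunit gene of phosphatase 2A, kept 11.1 and the glutathione transferase gene Gsta3 kept 11 of their 15.0 and 16.0 percentage points. The gain counted for Gsta3 lay in a tile 4340 bp from the gene, with 47.7 percentage points (36.3 at shared CpGs). The tiles that overlap Gsta3 had -1.30 and 1.66 (-1.74 and -1.59 at shared CpGs). The difference of Clec11a was 24.6 over all tested CpGs and -1.8 at shared ones. Suox, Polr2k, Gm28047, Atf7, and Atp5b had between -0.977 and 1.95 percentage points at shared CpGs. Gm28047 and Atf7 have the same values.

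Ranked at shared CpGs, again after the values were seen, the lower side after Il2rb ran Lfng, Zfp512, Pik3cd, Slc5a11, Usp20, 5730596B20Rik, Pim1, Rnf138, and Trub2, with differences from -20.0 to -10.4 percentage points. The following levels of 3 of them are those at shared CpGs. Lfng, the fringe glycosyltransferase that modifies Notch receptors, had 54.9% and 48.9% in WT and 32.2% and 31.7% in hSTAT5BN642H. Of the 3 tiles of Lfng, 1 is the Ttyh3 tile named above, which had -35.7 percentage points at shared CpGs. Only the first part of that tile lies within the 5 kb downstream of Lfng, so that the value of Lfng is partly that of Ttyh3. Pik3cd, which encodes the p110 delta subunit of PI3 kinase, had 54.8% and 57.5% in WT, 54.1% and 51.9% in hSTAT5B, and 39.9% and 41.0% in hSTAT5BN642H over 8 tiles. Pim1, a kinase gene transcribed in response to STAT5, had 23.8% in both WT libraries, 21.5% and 22.3% in hSTAT5B, and 13.9% and 12.8% in hSTAT5BN642H. In this gene the tile at the start had a level of 2.66% to 5.88% in the 4 libraries, and the difference was in the last exon and beyond, at -27.6 and -17.8 percentage points in the neighbouring tiles.

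The IL-2 family receptors other than Il2rb had smaller differences over all tested CpGs. Il15ra, the IL-15 receptor chain that presents the cytokine, had a difference of -2.46 percentage points, Il4ra -0.60, Il2ra (the alpha chain CD25) -0.255, and Il9r 1.93. Of the 8 genes of this list 5 had a value, and 1 of them (Il2rb) was at an unadjusted limma p under 0.05, as were 6.49% of all genes on the lower and 2.68% on the higher side. Among the 11 JAK and STAT genes the median difference was -1.16 percentage points, and its sign turned at shared CpGs, to 1.03. They ran from Stat4, with 69.9% and 61.9% in WT and 58.7% and 58.6% in hSTAT5BN642H, to Stat5a, with 62.1% and 62.9% in WT and 64.3% and 68.3% in hSTAT5BN642H. Of 12 STAT5 target genes 5 were lower and 7 higher, with a median of 1.56 percentage points that turned to -0.28 at shared CpGs, from -11.5 percentage points at Pim1 to 6.51 at Cish, the gene of the feedback inhibitor CIS. The survival gene Bcl2l1 had 72.9% and 69.8% in WT and 60.6% and 65.9% in hSTAT5BN642H.

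**Figure D5:**
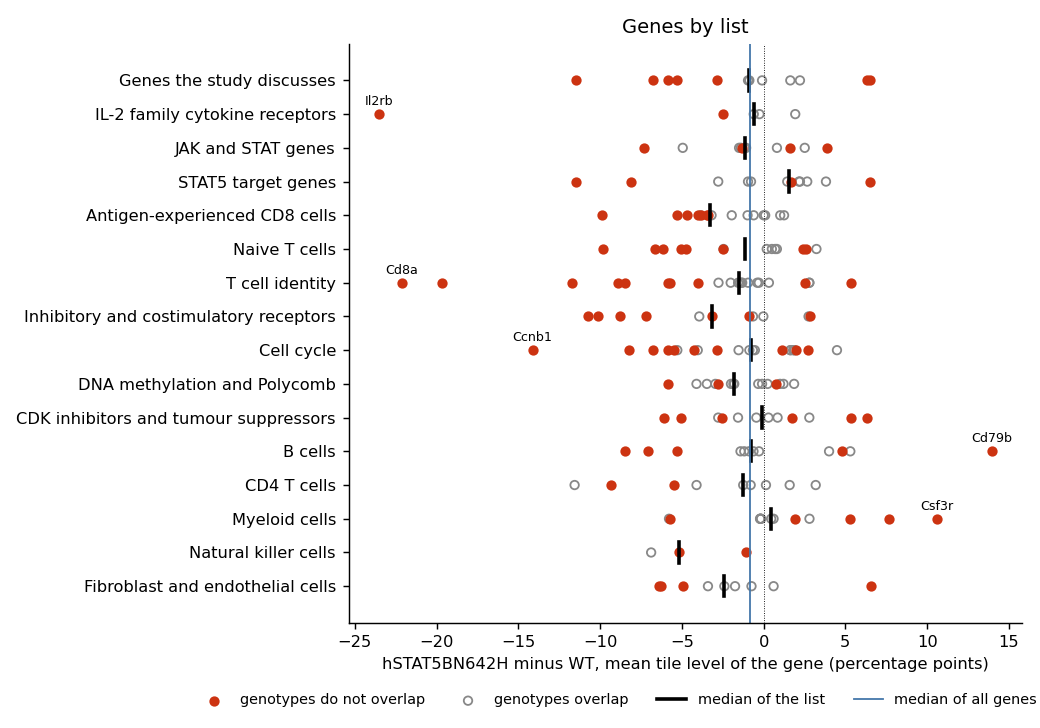
Difference in mean tile level of each gene, hSTAT5BN642H minus WT in percentage points, by gene list. Red points are genes whose genotypes do not overlap, open points overlap, black bars are list medians, and the blue line is the median of all 15019 genes, -0.85. Most list medians lie within a few points of the blue line, and Il2rb is the leftmost point at -23.5.

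Lists of CD8+ T cell state were read against the median of all genes, -0.85 percentage points. Of 16 antigen-experienced genes with a value 12 were lower. Both hSTAT5BN642H libraries lay below both WT libraries at 7 of them (43.8%, against 28.1% of all genes) and above both at 0 (against 12.5% of all genes). The median was -3.28 percentage points, and -0.41 at shared CpGs, where that of all genes was -0.51. The largest loss was at Gzma, granzyme A, with 56.7% and 60.3% in WT and 48.5% and 48.9% in hSTAT5BN642H, and the highest difference was 1.25 percentage points at Zeb2, whose genotypes overlapped and which had -0.13 at shared CpGs. For 11 inhibitory and costimulatory receptor genes the median was -3.14 percentage points (-1.38 at shared CpGs), from -10.8 at Havcr2 (-0.914 at shared CpGs) to 2.82 at Tox2. Tnfrsf18, which encodes the costimulatory receptor GITR, had -8.76 percentage points and -8.22 at shared CpGs. The 14 genes of naive T cells were lower at 7 and higher at 7, with a median of -1.13 (-1.92 at shared CpGs). They ran from -9.82 at Satb1, a chromatin organizer gene, to 3.23 at Lef1. At 6 of them (42.9%) both hSTAT5BN642H libraries lay below both WT libraries, close to the share of the antigen-experienced genes, and at 2 above both.

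Among 22 T cell identity genes 17 were lower, with a median of -1.50 percentage points. Cd8a had the largest loss, -22.1 percentage points, but its levels were 64.5% and 32.7% in WT, 23.1% and 43.3% in hSTAT5B, and 31.8% and 21.2% in hSTAT5BN642H. WT replicate 1 stands apart at this gene, and its distance to the other WT library is larger than the difference between the genotypes. The list mean was 66.5% in that library, against 60.1% to 62.5% in the other 5 libraries. Cd27, a costimulatory receptor gene, had 23.5% and 22.1% in WT and 9.64% and 12.6% in hSTAT5BN642H, and Bcl11b, a transcription factor gene of T cell commitment, 59.3% and 52.8% against 46.2% and 48.1%. Their differences at shared CpGs were -8.89 and -7.37 percentage points. The largest gain was 5.35 percentage points at Cd6.

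Of the genes that the study discusses by name, those not described above gave the following values. Aurkb, a mitotic kinase gene, had 74.7% and 78% in WT, 59.7% and 56.8% in hSTAT5B, and 72.1% and 67% in hSTAT5BN642H, and its difference of -6.75 percentage points was 0.87 at shared CpGs. Ezh2, the methyltransferase of Polycomb, had -5.84 and Suz12, a partner in the same complex, -0.09 percentage points. Aurka had -2.82, Bcl2 -0.95, and the topoisomerase gene Top2a -0.87 percentage points. Kntc1, a spindle checkpoint gene, had 1.63 (-0.18 at shared CpGs) and Ccnd2 2.22 (-1.30), so that their signs turned. Cdkn2a had 6.32 percentage points (4.70 at shared CpGs), with 28.9% and 32.8% in WT and 33.4% and 40.8% in hSTAT5BN642H. Ccl5 had fewer than 2 tiles and no value.

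Of the 22 cell cycle genes with a value 13 were lower, with a median of -0.76 percentage points (-1.02 at shared CpGs). An unadjusted limma p under 0.05 was found at 5, each lower (against 6.49% lower and 2.68% higher over all genes). At shared CpGs these 5 had -6.40 (E2f2), -2.56 (Birc5), -0.69 (Ccnb1), 0.87 (Aurkb), and -8.51 percentage points (Ccne1, the cyclin E1 gene). Over all tested CpGs the 22 genes ran from -14.1 percentage points at Ccnb1 to 4.49 at Cdk4, and Ccne1 had -8.23. For 15 genes of DNA methylation and Polycomb the median was -1.8 percentage points, from Ezh2 to 1.86 at Dnmt3l, and 0 of them had an unadjusted p under 0.05 in limma (6.49% lower and 2.68% higher over all genes). The 12 CDK inhibitors and tumour suppressors had a median of -0.07, from -6.11 at Cdkn2d to 6.32 at Cdkn2a.

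Lists of markers of other cells that the enrichment could have let through had medians from -5.17 to 0.46 percentage points, and from -2.57 to 0.45 at shared CpGs. The mean over 12 B cell genes was 72.1% and 72.4% in WT and 71.6% and 73.4% in hSTAT5BN642H, with a median difference of -0.76 percentage points that turned to 0.45 at shared CpGs. They ran from -8.46 at Bank1 to 14.0 at Cd79b, a chain of the B cell receptor, which had 47.4% and 43.9% in WT, 47.9% and 51.7% in hSTAT5B, and 52.8% and 66.4% in hSTAT5BN642H. Over 13 myeloid genes the mean was 75.9% and 75.1% in WT and 76.0% and 77.6% in hSTAT5BN642H, from -5.78 percentage points at Lyz2 (0.47 at shared CpGs) to 10.6 at Csf3r. The 9 CD4 T cell genes had a median of -1.25, from -11.6 at Il13 to 3.19 at Zbtb7b. The levels of Il13 were 86.2% and 93.0% in WT and 65.3% and 90.9% in hSTAT5BN642H, so that the genotypes overlapped and hSTAT5BN642H replicate 1 stood apart. Of the 9 fibroblast and endothelial genes 7 were lower, with a median of -2.40 (-0.58 at shared CpGs), from -6.41 at Col1a1 to 6.57 at Col1a2. The 3 natural killer cell genes with a value, of 9 in the list, were each lower, from -6.88 (Cd7) to -1.06 (Fcer1g), with a median of -5.17. Both hSTAT5BN642H libraries lay below both WT libraries at 3 of 12 B cell, 1 of 13 myeloid, 2 of 9 CD4 T cell, 3 of 9 fibroblast and endothelial, and 2 of 3 natural killer cell genes, against 28.1% of all genes. They lay above both at 2, 4, 0, 1, and 0 of them, against 12.5%. A methylation level does not count cells, and the part of the cell mix in the differences above was not tested.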

How the data were processed

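RRBS libraries, 2 per genotype, were made from CD8+ T cells of WT, hSTAT5B, and hSTAT5BN642H mice. The authors trimmed reads with Trimmomatic, aligned them to GRCm38 (mm10) with BSMAP in RRBS mode, and counted reads per CpG with their own code. The deposited files hold methylated over all reads for each CpG as raw counts and a score of up to 1000 for the methylated share, which was used here only as a check. Versions are not given in the sources used here. Read counts summed over CpGs, where a read counts once for each CpG it covers, were 44109392 to 67007186 per library of WT and hSTAT5BN642H.

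Islands were called by the UCSC rule on the GRCm38 sequence (15607 on autosomes), and genes were taken from GENCODE M21. Tiles, windows, and genes were tested with limma 3.58.1 (R 4.3.3), in 1 model of the 6 libraries, and p-values were adjusted by the Benjamini-Hochberg method. A tile without 3 tested CpGs in an hSTAT5B library had a missing value there. The 2 libraries of a genotype are separate mice. On simulated hSTAT5BN642H data, limma recovered 39% of tile changes of 40 percentage points over 124892 tiles and 0% of those of 20. It recovered 0% of changes of 2 points and 84.5% of changes of 5 points over 2410 windows (0 and 5 false calls). Over 15019 genes it recovered 0% of changes of 10 points and 69% of those of 20 (0 and 6 false calls). For windows and genes the simulated spread was taken over all 6 libraries, so that it includes any difference between the genotypes. For tiles the spread between libraries was a set value that was not taken from these data. Tile changes were simulated only in tiles of intermediate to high level.

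Named tiles and genes are the 10 with the widest gap on either side (the distance between the nearest libraries of the 2 genotypes where they do not overlap), among tiles with at least 5 CpGs and genes with at least 3 tiles. List members named are those with the largest loss and gain, and the genes of the list the study discusses, and others were named after their values were seen. A few named items are not reported here. The members and gene lists were chosen with earlier results of these data known. Alternatives were 1 or 10 reads per CpG, 5 CpGs per library, shared CpGs, no CpGs of 1000 reads or more, CpGs over 2 kb from an island, tiles of 2 and 10 kb, pooled reads, and leaving out each library, with other models for the tests. Centring and the ranking at shared CpGs were added afterwards. Scripts ran in Python 3.11.15 (scipy 1.17.1, pandas 2.3.3, numpy 2.4.6).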

Additional observations from a re-analysis of the deposited data

How the results depend on the processing

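Counting CpGs with 1 or more reads, the mean difference was -1.54 percentage points over all tiles, -1.45 in introns, -1.47 within 10 kb of a gene, -1.73 between genes, and -1.88 in soft-masked tiles. Promoter tiles gave -0.0579 at 10 reads per CpG, -0.209 in tiles of 2 kb, and 0.290 at shared CpGs. Tiles near an island gave -0.102, -0.209, and 0.160 under the same settings, -1.72 in tiles of 10 kb, and -0.470 from pooled reads. Leaving out each library, the mean difference was -1.24 to -0.825 over all tiles, -1.48 to -0.576 in promoter, and -0.885 to -0.324 in exon tiles.

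Tiles past 10 percentage points numbered 6529 at 10 reads (3757 lower, 2772 higher), 36029 at 1 read (23352 and 12677), 5078 with 5 CpGs per library (3065 and 2013), and 6496 at shared CpGs (3871 and 2625). A threshold of 5 points gave 35853 (22514 and 13339) and 1 of 20 points 1956 (1234 and 722). Leaving out each library gave 14975 to 17735 tiles, 8978 to 10508 lower and 5315 to 7873 higher, where fewer libraries are averaged.

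The quasi-binomial model called 79 tiles. Of the 1-Mb windows, 17 were called at 10 reads, 243 at 1 read, 0 with 5 CpGs per library, 214 at shared CpGs, 350 from pooled reads, 0 with the 4 libraries alone, and 0 after centring. Leaving out each library gave 0 to 268. The cause was not tested. With the replicate number as a block, limma called 0 tiles, 170 windows, and 0 genes. Deviations of libraries with the same number correlated with r from -0.00833 to 0.0143 over tiles. This cannot settle whether the numbers pair the mice, since even the genotype difference repeated over tiles with r of only 0.12 and 0.13. Tile and gene calls by limma were 0 under each alternative run. With 2 mice per genotype, limma on simulated data found 0% of tile changes of 20 points. A count of 0 tiles therefore does not show that such changes are absent. The spread of the simulated tiles was set and not taken from these data, so that the share found in real libraries can differ.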
